A study of Rattus norvegicus with 20 samples.

Results

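The genes described here are 36 nuclear receptors outside the NR4A family, taken as listed by name and read from the brightest probe set of each gene, brightest meaning highest on average over 20 arrays. All 36 were measured, out of 14217 genes on the array. The rule for the probe set uses no comparison between groups. RNA came from islets of male Wistar rats aged 8 weeks, with 1 Affymetrix array per sample and 5 arrays in each of 4 groups. Untreated islets received no virus, and the other groups were given adenovirus for Nr4a1, Nr4a3 or, as the control for the virus itself, green fluorescent protein (GFP). Culture medium held 8 mM glucose and 10% serum for every group. Virus, where given, was present for 18 h, and islets were collected at 48 h. The labels' treatment text instead speaks of beta-galactosidase and Nkx6.1 viruses. Groups here follow the titles and the sample characteristics. The sources used here give neither the promoter in the viruses nor the share of cells reached. They call replicates biological without saying which animals they came from, so a p reflects the spread between samples only, which may be in part technical.

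Nuclear receptors are transcription factors with a zinc finger domain that reads DNA and a pocket that in many members binds a small lipophilic ligand such as a steroid, retinoid, thyroid hormone, fatty acid or bile acid. Steroid receptors bind DNA as pairs of like receptors, many sensors of metabolites pair with a retinoid X receptor (RXR), and others act alone. The NR4A receptors, which the viruses delivered, need no known ligand and bind a site called NBRE, and Nr4a1 can also pair with RXR. In islets the family is best known through Hnf4a, whose human gene is mutated in a monogenic diabetes, and through receptors for fatty acids, glucocorticoids, estrogens and bile acids that alter insulin secretion.

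Some facts of the whole series touch what follows. The median intensity of an array ranged from 98.9 to 103 (linear). Nr4a3 replicate 2 stood apart: its mean correlation with the other arrays across genes, which are not independent replicates, was 0.941, against 0.982 to 0.989 in the other 19 arrays, and its beta-actin control probe sets differed between the 3' and 5' end by 4.62 on the log2 scale, against 1.50 to 2.21. Values that involve the Nr4a3 group are also given without it where that turns their direction, moves them by over 1.5 times or changes a call. Nr4a1 itself read 5.99 ± 0.12 in its own group against 6.07 ± 0.09 with GFP (log2, mean ± SD, n = 5), and Nr4a3 read 5.82 ± 0.19 in its own group against 5.63 ± 0.17 with GFP, both on the brightest probe set. The Nr4a3 probe set read 5.83 ± 0.07 in the untreated arrays and 6.07 ± 0.13 in the Nr4a1 arrays. The sources used here do not say whether these probe sets read the viral transcripts, so they check neither delivery nor labels. Cell type markers also moved in the Nr4a1 arrays. The mean of 23 acinar cell markers was 10.06 ± 0.53 there (SD, log2, n = 5) against 7.86 ± 0.97 in the GFP arrays. The log2 of their summed intensity ranged from 15.15 to 16.39 against 12.05 to 14.65, and 19 of 23 rose (all genes 6.16%). In the untreated arrays the mean was 8.19 ± 1.18. Their summed value ranged from 12.21 to 15.77, which overlaps with the Nr4a1 arrays. Of 15 beta cell markers 6 fell and none rose, and of 13 endothelial cell markers 7 fell and none rose (2.55% of all genes fell). Of 10 duct cell markers 1 rose (all genes 6.16%). None of 10 markers of other islet hormone cells, 14 of fibroblasts and stellate cells and 14 of leukocytes passed limma's test (all genes 8.71%). With Nr4a3 1 of 23 acinar and 1 of 10 duct cell markers rose (all genes 1.75%). In the same arrays 1 of 15 beta cell and 2 of 13 endothelial cell markers fell (25 of all 14217 genes). Without Nr4a3 replicate 2, 3 of 13 endothelial cell markers fell with Nr4a3 (55 of all 14217 genes). With Nr4a1 9 of 15 beta cell markers then fell (all genes 6.86%), as did 1 marker each of duct cells, other islet hormone cells, and fibroblasts and stellate cells. No marker was at 0 on any array. The control probe sets for GAPDH were brighter at the 3' end than at the 5' end by 0.271 to 0.357 (log2) with Nr4a1 and by 0.499 to 0.739 with GFP. In whole islets fewer cells of a type and less RNA per cell cannot be told apart, and the part of cell composition or RNA quality in the results below was not tested.

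Islets gave clear signal for some receptors of every role and signal near the floor of the array for others. No detection p-values were used here, so 19 olfactory and vomeronasal receptor genes, which islets are not known to use, served as a rough yardstick for background, chosen after the values were seen. Their means over 20 arrays had a median of 4.60 on the log2 scale, and all but 1 lay at or below 5.79, the other at 8.04. By that measure 22 of 36 receptor genes had a mean above 5.79 and 14 did not. Probe sets differ in affinity, so signals rank no gene against another. A gene near the floor may be absent, rare or poorly probed, and its changes are compressed.

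In untreated islets (mean ± SD of log2 intensity, n = 5) the clock receptors all gave signal: Nr1d1, the heme-binding repressor REV-ERB alpha, stood at 7.13 ± 0.49, its relative Nr1d2 at 9.44 ± 0.28, and Rora, the activator that competes with them for the same DNA element, at 8.45 ± 0.70. Among sensors of metabolites and foreign compounds, the oxysterol receptor genes Nr1h2 (LXR beta) and Nr1h3 (LXR alpha) stood at 7.96 ± 0.19 and 6.39 ± 0.37, Nr1h4, the bile acid receptor FXR, at 7.83 ± 0.12, and the fatty acid receptor gene Ppard at 7.87 ± 0.24. Ppara, which drives fatty acid oxidation genes, stood close to the yardstick at 5.82 ± 0.14. Pparg, the adipocyte regulator, and the drug sensors Nr1i2 (PXR) and Nr1i3 (CAR) lay below it at 4.76 ± 0.12, 4.62 ± 0.11 and 4.88 ± 0.21. The hormone receptors split in the same way. The thyroid hormone receptor genes Thrb and Thra stood at 10.37 ± 0.18 and 7.90 ± 0.14, the glucocorticoid receptor gene Nr3c1 at 9.36 ± 0.14 and the mineralocorticoid receptor gene Nr3c2 at 6.70 ± 0.21. The estrogen receptor genes Esr1 (3.95 ± 0.15) and Esr2 (3.83 ± 0.21), the progesterone receptor gene Pgr (4.99 ± 0.10) and the vitamin D receptor gene Vdr (4.62 ± 0.17) lay below the yardstick.

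All retinoid receptor genes but Rxrg gave signal well above the yardstick in untreated islets: Rara stood at 7.01 ± 0.12, Rarb at 6.64 ± 0.15, Rxra at 7.18 ± 0.16 and Rxrb at 7.34 ± 0.08, and Rxrg at 5.86 ± 0.19. Among the orphan receptors, which have no established hormone, Nr2f2 (COUP-TFII) stood at 9.60 ± 0.33, Hnf4a at 8.98 ± 0.12, Nr2f6 at 8.51 ± 0.10, and the estrogen-related receptor genes Esrrg and Esrra, regulators of mitochondrial genes, at 8.49 ± 0.41 and 7.53 ± 0.22. Nr2c1 (TR2) stood at 7.51 ± 0.19 and its relative Nr2c2 (TR4) at 4.67 ± 0.10. The steroidogenic regulator Nr5a1 (5.88 ± 0.10), Nr5a2 (5.72 ± 0.29), Nr2f1 (4.94 ± 0.17) and the receptors without a DNA-binding domain, Nr0b1 (5.14 ± 0.20) and Nr0b2 (5.64 ± 0.11), were, like Nr2c2 and Rxrg, at or below the yardstick by their means over 20 arrays. The spread among the 5 untreated arrays had a median SD of 0.170 over the 36 genes and was widest for Rora, with 9.04, 8.83, 8.96, 7.99 and 7.44 in the 5 arrays in order of replicate.

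**Figure D1:**
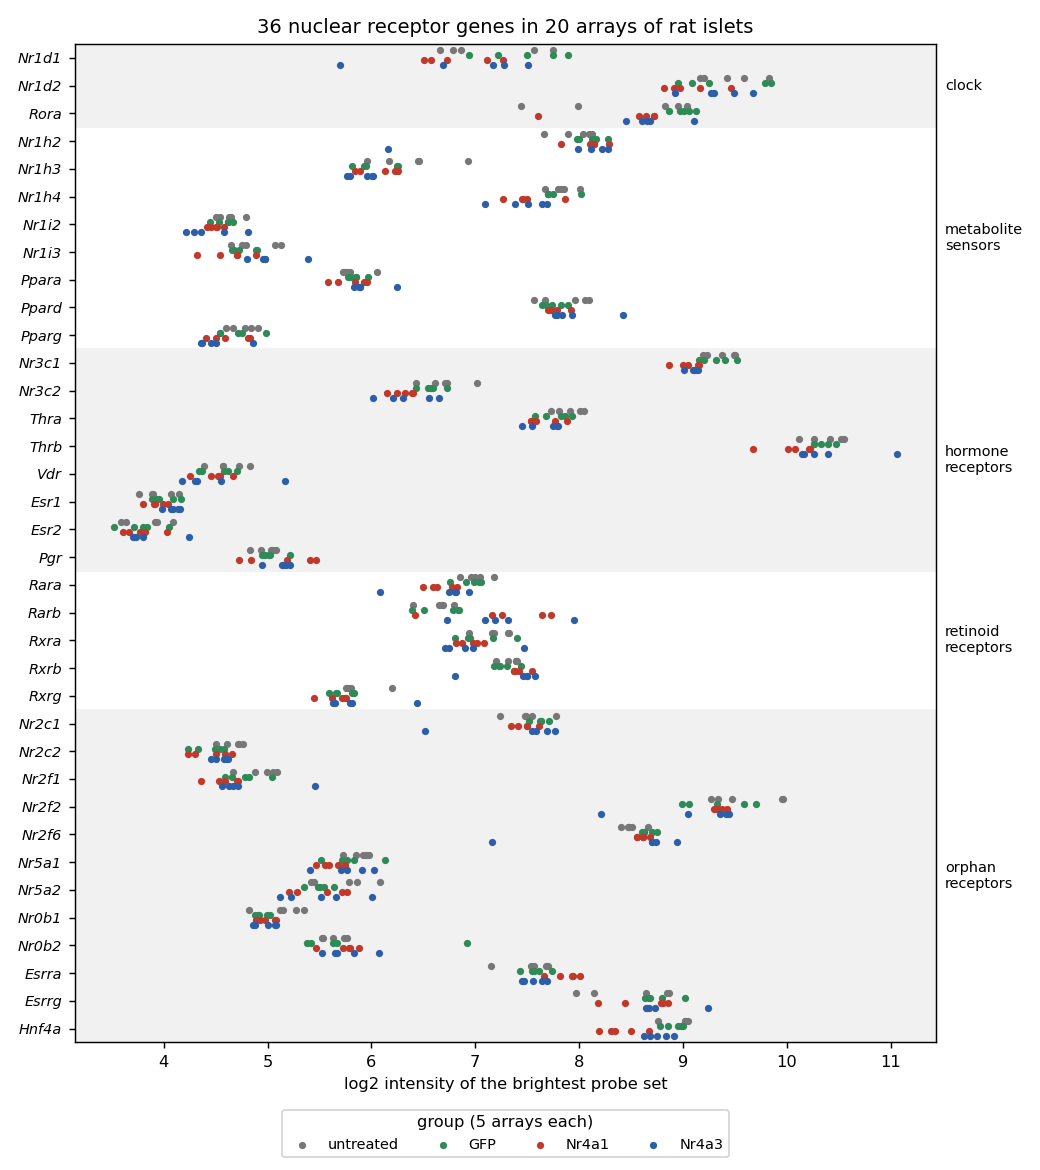
Log2 intensity (x axis) of the brightest probe set of each of 36 receptor genes (y axis, ordered by role) in 20 arrays, 1 point per array, coloured by group. For most genes the 4 groups overlap. Hnf4a lies lower in all Nr4a1 arrays than in all GFP arrays, and the lone points of Nr1h2 at 6.16 and Thrb at 11.06 are Nr4a3 replicate 2.

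Few of the receptor genes passed the test in islets given a NR4A virus. In the comparison of Nr4a1 with GFP, which sets added Nr4a1 against the control virus, 2 of 36 receptor genes fell and none rose at a limma adjusted p under 0.05 (5.56% of the receptor genes, against 8.71% of all 14217 genes). The genes that fell were Hnf4a and Nr3c1. At an unadjusted p under 0.05 there were 10 of 36 (all genes 19.9%), with Nr1d1, Nr1h4, Nr3c2, Rara, Rarb, Thrb, Esrra and Rora as the further ones. Over all genes 6.16% rose and 2.55% fell. Log2 differences ran from -0.62 for Nr1d1 to 0.57 for Rarb, with a median of -0.08 (all genes -0.001), and 26 of 36 were below 0 (all genes 50.4%). In GFP against untreated islets 24 of 36 were below 0 (8187 of all 14217 genes). For Nr4a1 against GFP the 95% confidence interval of the difference lay within 0.5 of 0 on the log2 scale in 23 of the 36. Groups did not overlap in 5 receptor genes (13.9%, against 16.2% of all genes), and in each of them, Hnf4a, Nr3c1, Nr3c2, Thrb and Rora, the Nr4a1 arrays were the lower. Leaving out Nr4a3 replicate 2 changes this comparison only through the spread that all groups share, and then 6 receptor genes were called (16.7%, against 19.1% of all genes): Hnf4a, Nr3c1, Rara and Thrb fell (all genes 6.86%), and Rarb and Esrra rose (all genes 12.2%).

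In the comparison of Nr4a3 with GFP no receptor gene passed limma's test (0 of 36, against 1.93% of all genes), and 4 had an unadjusted p under 0.05 (all genes 12.8%): Nr1h4, Nr3c1, Rara and Rarb. Log2 differences ran from -0.59 for Nr1d1 to 0.58 for Rarb with a median of -0.04, and 22 of 36 were below 0 (7006 of all 14217 genes). The 95% confidence interval lay within 0.5 of 0 for 26 of 36. Groups did not overlap in 2 genes, Nr1h4 and Nr3c1 (5.56%, against 4.63% of all genes). Without Nr4a3 replicate 2, 1 receptor gene was called, Rxrb, which rose (2.78%, against 3.71% of all genes). Leaving it out turned the sign of the difference from GFP in 8 of 36 receptor genes and turned it or moved it by over 1.5 times in 26. The differences then ran from -0.40 for Rora to 0.41 for Rarb, with a median of -0.06. Both comparisons share the GFP arrays, so a like pattern in both is in part fixed by those 5 arrays.

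**Figure D2:**
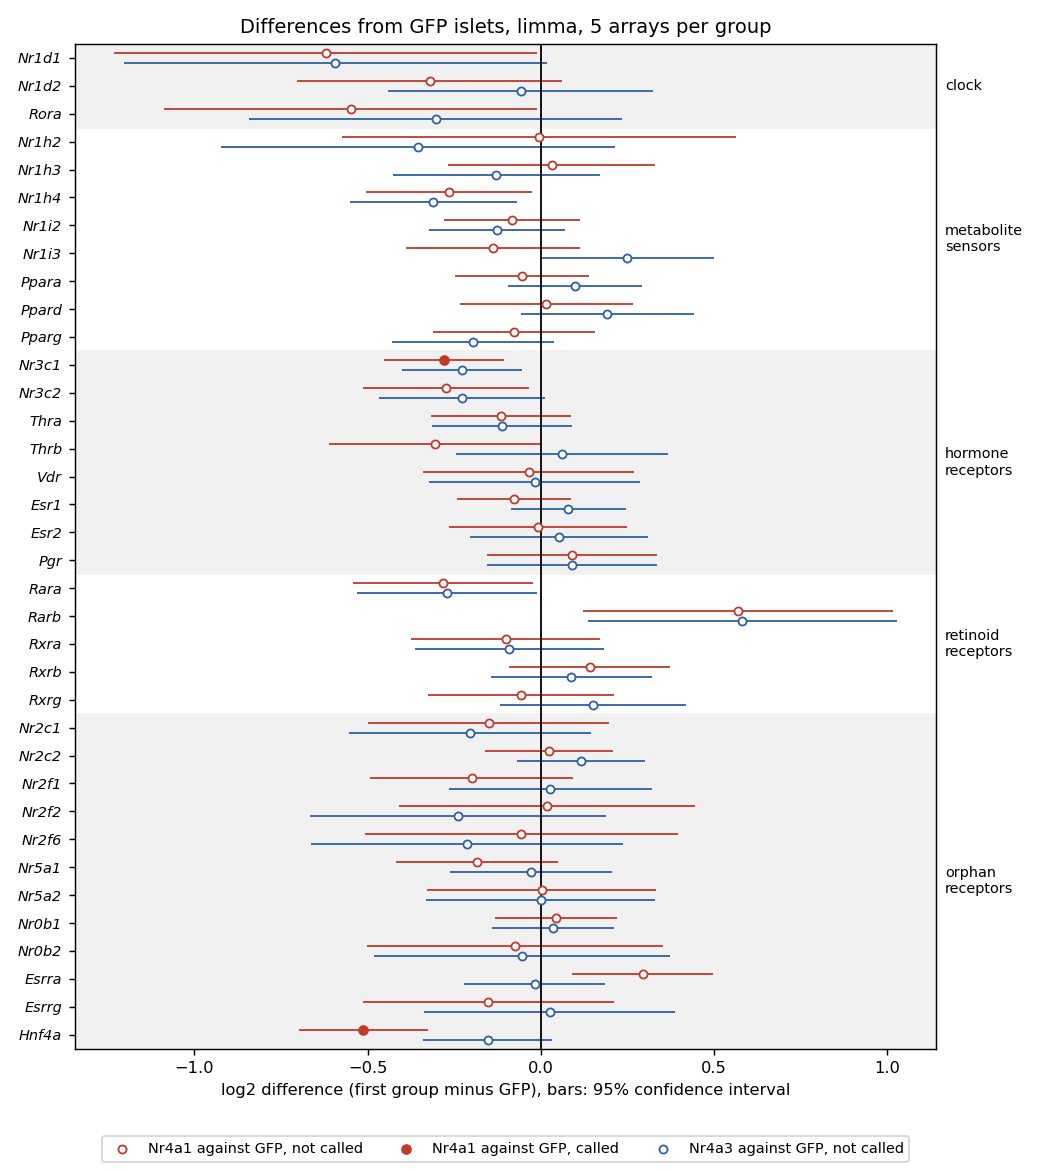
Log2 difference from GFP islets (x axis) with 95% confidence intervals for 36 receptor genes (y axis, by role), Nr4a1 in red and Nr4a3 in blue, limma, 5 arrays per group. Filled points, Hnf4a at -0.51 and Nr3c1 at -0.28 for Nr4a1, passed an adjusted p under 0.05, and open points did not.

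Hnf4a, which encodes a transcription factor of liver, gut and islets, was the receptor gene with the smallest p. Its log2 intensities in order of replicate were 9.00, 8.78, 8.95, 8.98 and 8.86 in the GFP arrays, 8.19, 8.50, 8.67, 8.30 and 8.35 in the Nr4a1 arrays, 8.83, 8.68, 8.75, 8.62 and 8.92 in the Nr4a3 arrays and 9.02, 9.03, 9.02, 8.76 and 9.05 in the untreated arrays. Every Nr4a1 array lay below every GFP array and every untreated array, while the Nr4a3 arrays overlapped with GFP. It fell by 29.9% in the Nr4a1 arrays (log2 -0.51 ± 0.09, SE, n = 5 per group, limma adjusted p = 0.000956, and 0.000332 without Nr4a3 replicate 2). The call held without any 1 of the 20 arrays (adjusted p up to 0.00432). In the Nr4a3 arrays it differed from GFP by -0.15 ± 0.09 (adjusted p = 0.50). Both dimmer Hnf4a probe sets lay below the yardstick, at 4.99 and 4.91 over 20 arrays, and differed by 0.01 and -0.03. Averaged with them the change was -0.18 and did not pass (adjusted p = 0.0638). Acinar markers were higher and beta cell markers lower in the same arrays, and their part in this fall was not tested.

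Hnf4a is transcribed from a pair of promoters, an upstream one known from human and rodent work as the main promoter in islets and a downstream one that dominates in liver. RefSeq places rat start sites 35616 bases apart in build GRCr8, and the 250 bases before each are shown because this gene carries the clearest change. Both are in lower case, since neither holds AAAGGTCA, AGGTCA or CACGTG, the strings described here, on either strand.
Hnf4a upstream start, chr3:172605970-172606219, plus strand: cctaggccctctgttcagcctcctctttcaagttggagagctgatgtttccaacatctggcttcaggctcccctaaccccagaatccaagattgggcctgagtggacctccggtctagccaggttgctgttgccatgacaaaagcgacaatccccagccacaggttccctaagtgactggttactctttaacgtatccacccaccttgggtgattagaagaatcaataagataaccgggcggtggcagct
Hnf4a downstream start, chr3:172641586-172641835, plus strand: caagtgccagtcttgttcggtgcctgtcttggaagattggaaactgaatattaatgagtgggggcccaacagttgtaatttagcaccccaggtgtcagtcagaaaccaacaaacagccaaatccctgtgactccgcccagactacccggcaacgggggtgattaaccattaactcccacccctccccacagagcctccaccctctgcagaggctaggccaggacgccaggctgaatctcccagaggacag
Whether any Hnf4a probe set separates the transcripts of both promoters was not tested. The NBRE letters AAAGGTCA (both strands) were in none of 40 such windows of the 32 receptor genes with an entry, both Hnf4a windows among them, against 1.24% of all 33469 windows of 250 bases before a RefSeq start, which says only that these letters are not in these windows. The shorter AGGTCA, which NBRE contains, was in 4 of the 40, those of Esrrg, Nr0b1, Nr1d2 and Nr5a2, against 14.1% of all windows. A match is not a site in use.

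Nr3c1, the glucocorticoid receptor, was the other gene called. Its log2 intensities were 9.41, 9.52, 9.32, 9.16 and 9.21 in the GFP arrays, 8.86, 9.15, 9.05, 9.15 and 9.00 in the Nr4a1 arrays, 9.01, 9.11, 9.10, 9.10 and 9.14 in the Nr4a3 arrays and 9.50, 9.20, 9.49, 9.38 and 9.23 in the untreated arrays. The arrays of both NR4A groups lay below all GFP and untreated arrays, by a narrow margin. Nr3c1 fell by 17.7% in the Nr4a1 arrays (log2 -0.28 ± 0.08, SE, n = 5 per group, limma adjusted p = 0.0389) and differed by -0.23 ± 0.08 in the Nr4a3 arrays (adjusted p = 0.209, and 0.143 without Nr4a3 replicate 2). The Nr4a1 call was lost when any of GFP replicates 1 to 3, or any of Nr4a1 replicates 1, 3 and 5, was left out, with limma adjusted p from 0.0623 to 0.134. It was lost as well with each array centred on its median (adjusted p = 0.0554). Tested over all 31042 probe sets, the brightest Nr3c1 probe set did not pass with Nr4a1 (limma adjusted p = 0.0537). Without Nr4a3 replicate 2 it passed there (limma adjusted p = 0.0253). The dimmer Nr3c1 probe set, at 5.55, differed by -0.33 ± 0.14 in the Nr4a1 arrays and -0.40 ± 0.14 in the Nr4a3 arrays and did not pass over all probe sets (limma adjusted p = 0.231 and 0.240). Averaged over both probe sets Nr3c1 passed against GFP for both viruses (adjusted p = 0.0172 and 0.0410).

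In the glucocorticoid response 1 gene passed with each virus. Of 17 measured, 1 fell (all genes 2.55%) and none rose (all genes 6.16%) in the Nr4a1 arrays. The median was -0.11 (all genes -0.001). The gene that fell was Sgk1, a kinase induced by glucocorticoids and mineralocorticoids, at 8.77 ± 0.24 against 9.31 ± 0.10 (SD, log2, n = 5; log2 difference -0.54 ± 0.11, SE, limma adjusted p = 0.00339), with no overlap between the groups. In the Nr4a3 arrays 1 rose (all genes 1.75%) and none fell, with a median of 0.03. That gene was Hsd11b2, whose enzyme inactivates glucocorticoids, at 7.23 ± 0.23 against 6.67 ± 0.13 (log2 difference 0.56 ± 0.09, limma adjusted p = 0.00296). Without Nr4a3 replicate 2, 2 rose (all genes 12.2%) and 2 fell (all genes 6.86%) in the Nr4a1 arrays. In the Nr4a3 arrays 2 then rose (3.71% of all genes were called), and the median was 0.0045. Klf9, a target of glucocorticoid and thyroid hormone receptors, was 1 of the 2 falls, at 10.61 ± 0.05 in the Nr4a1 arrays and 10.93 ± 0.01 in the GFP arrays (limma adjusted p = 0.00106 without Nr4a3 replicate 2, 0.400 with it).

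Nr3c2, the mineralocorticoid receptor gene, differed by -0.27 ± 0.11 in the Nr4a1 arrays and -0.23 ± 0.11 in the Nr4a3 arrays (SE, n = 5 per group, limma adjusted p = 0.172 and 0.415). Without Nr4a3 replicate 2, the lowest of its group, the Nr4a3 difference was -0.15 ± 0.11. Its Nr4a1 arrays, 6.24, 6.40, 6.15, 6.39 and 6.32, lay below all GFP arrays, 6.43, 6.73, 6.54, 6.58 and 6.60, though the highest and lowest nearly met. The sex steroid receptor genes stayed near the floor in all groups: group means of Esr1 ran from 3.93 to 4.09, of Esr2 from 3.78 to 3.84 and of Pgr from 4.99 to 5.13. The Esr1 difference from GFP had a 95% confidence interval of -0.24 to 0.09 for Nr4a1 and -0.08 to 0.24 for Nr4a3.

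For the thyroid hormone receptor genes, what passed in the Nr4a1 arrays depended on the probe set and the arrays used. Thrb was at 10.40, 10.26, 10.33, 10.47 and 10.26 in the GFP arrays, 9.68, 10.01, 10.22, 10.21 and 10.08 in the Nr4a1 arrays and 10.16, 11.06, 10.14, 10.40 and 10.26 in the Nr4a3 arrays. All Nr4a1 arrays lay below all GFP arrays, and the single high Nr4a3 value is replicate 2. The log2 difference between Nr4a1 and GFP was -0.31 ± 0.15 (SE, n = 5 per group, limma adjusted p = 0.250), and without Nr4a3 replicate 2 the adjusted p was 0.0370. A dimmer Thrb probe set, at 9.27, differed by -0.47 ± 0.16 (limma adjusted p = 0.0957 over all probe sets; 0.0421 without Nr4a3 replicate 2). Thra, the other thyroid hormone receptor, differed by -0.11 ± 0.10 on its brightest probe set (adjusted p = 0.603). A second Thra probe set of nearly the same brightness (7.72 against 7.75 over 20 arrays) fell by 0.38 ± 0.08 on the log2 scale (limma adjusted p = 0.00770 over all 31042 probe sets), from 7.65 to 8.10 in the GFP arrays to 7.42 to 7.56 in the Nr4a1 arrays. Both of these Thra probe sets were lower on average with Nr4a1, and only the second passed. Whether they differ from each other was not tested. In the RefSeq annotation Thra overlaps Nr1d1 on the opposite strand. The sources used here do not say which Thra transcripts a probe set reads.

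Of 11 genes of thyroid hormone and vitamin D handling, 1 rose (all genes 6.16%) and 2 fell (all genes 2.55%) in the Nr4a1 arrays. The median was -0.05. Without Nr4a3 replicate 2, 1 rose (all genes 12.2%) and 3 fell (all genes 6.86%). This list shares 1 gene with another list. Cyp27a1, a sterol and vitamin D hydroxylase, rose from 5.29 ± 0.10 to 6.31 ± 0.46 (SD, log2, n = 5; log2 difference 1.02 ± 0.17, SE, limma adjusted p = 0.000832). Its mean lay below the yardstick in the GFP arrays and in the untreated arrays (5.48). Slc16a10, a transporter of thyroid hormone and aromatic amino acids, fell from 8.28 ± 0.13 to 7.83 ± 0.20 (adjusted p = 0.0153), and Gc, the vitamin D binding protein gene, from 13.42 ± 0.08 to 13.12 ± 0.15 (adjusted p = 0.0210). In the Nr4a3 arrays none of the 11 passed limma's test (all genes 1.93%), and 2 had an unadjusted p under 0.05 (all genes 12.8%). Their median was 0.03 with 4 below 0. The median without Nr4a3 replicate 2 was -0.02 with 9 below 0. Vdr itself stayed at the floor, with group means from 4.49 to 4.62 and a difference of -0.04 ± 0.15 between Nr4a1 and GFP.

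Rarb, the retinoic acid receptor gene that retinoic acid itself induces in many tissues, had the highest log2 difference of the 36 from GFP with either virus and did not pass. It was at 6.84, 6.79, 6.85, 6.40 and 6.51 in the GFP arrays, 6.40, 6.69, 6.68, 6.65 and 6.79 in the untreated arrays, 7.16, 7.26, 6.42, 7.73 and 7.65 in the Nr4a1 arrays and 7.32, 7.96, 7.09, 6.73 and 7.19 in the Nr4a3 arrays. In 4 of 5 arrays of each NR4A group, all but Nr4a1 replicate 3 and Nr4a3 replicate 4, Rarb lay above every GFP and untreated array. The log2 difference was 0.57 ± 0.21 for Nr4a1 and 0.58 ± 0.21 for Nr4a3 (SE, n = 5 per group, limma adjusted p = 0.118 and 0.215). Without Nr4a3 replicate 2, the highest of its group, the adjusted p was 0.0359 for Nr4a1, and for Nr4a3 the difference was 0.41 ± 0.20 with 0.311. Without Nr4a1 replicate 3 the Nr4a1 difference was 0.77 with an adjusted p of 0.0114.

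Rara, a second retinoic acid receptor, was lower on average with both viruses and did not pass, with 6.99, 6.75, 6.91, 7.03 and 7.06 in the GFP arrays, 6.59, 6.63, 6.82, 6.78 and 6.50 in the Nr4a1 arrays and 6.81, 6.08, 6.75, 6.94 and 6.80 in the Nr4a3 arrays. Its log2 difference was -0.28 ± 0.12 for Nr4a1 (limma adjusted p = 0.197, and 0.0125 without Nr4a3 replicate 2) and -0.27 ± 0.12 for Nr4a3, where it became -0.12 ± 0.08 without replicate 2, the lowest value of all 20 arrays. For Nr4a1 the log2 difference was -0.10 ± 0.13 for Rxra, 0.14 ± 0.11 for Rxrb and -0.06 ± 0.13 for Rxrg, and none passed. For Nr4a3 Rxra differed by -0.09 ± 0.13, or -0.22 ± 0.11 without replicate 2, and Rxrg by 0.15 ± 0.13, or 0.01 ± 0.09. For Nr4a3 Rxrb was at 7.58, 6.80, 7.50, 7.49 and 7.46 against 7.18, 7.23, 7.31, 7.24 and 7.44 in the GFP arrays. With replicate 2, the low value, its difference was 0.09 ± 0.11 and did not pass, and without it Rxrb rose by 0.23 ± 0.06 (limma adjusted p = 0.0461).

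Genes that make, store or respond to retinoic acid held calls with both viruses. In the Nr4a1 arrays 2 of 15 rose (all genes 6.16%) and none fell (median 0.04), and in the Nr4a3 arrays 2 of 15 rose (all genes 1.75%) and none fell. These counts were 3 (all genes 12.2%) and 1 (472 of all 14217 genes) without Nr4a3 replicate 2. Aldh1a1, which oxidizes retinal to retinoic acid, was at 6.12, 5.61, 5.32, 5.35 and 5.56 in the GFP arrays, 7.84, 7.00, 7.36, 7.43 and 7.26 in the Nr4a1 arrays and 6.46, 6.92, 6.45, 6.14 and 6.07 in the Nr4a3 arrays. It rose 3.45-fold with Nr4a1 (log2 1.78 ± 0.21, SE, n = 5 per group, limma adjusted p = 1.39e-05) with all arrays above all GFP arrays, and 1.77-fold with Nr4a3 (log2 0.82 ± 0.21, adjusted p = 0.0461, and 0.0696 without Nr4a3 replicate 2). The difference between both NR4A groups passed as well, by 0.96 ± 0.21 (adjusted p = 0.0330). In the GFP arrays the Aldh1a1 mean, 5.59, lay below the yardstick. Lrat, which stores retinol as esters, rose by 0.46 ± 0.13 with Nr4a1 at a level below the yardstick (adjusted p = 0.0267). Dhrs3, a retinal reductase induced by retinoic acid, rose by 0.57 ± 0.14 with Nr4a3 (adjusted p = 0.0405) and differed by 0.43 ± 0.14 with Nr4a1 (adjusted p = 0.0665). Acinar markers rose in the same Nr4a1 arrays, as given above. In the Nr4a3 arrays 1 of 23 acinar markers rose, and their mean was 8.69 ± 0.33 against 7.86 ± 0.97 with GFP. The part of acinar cells in these values was not tested.

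**Figure D3:**
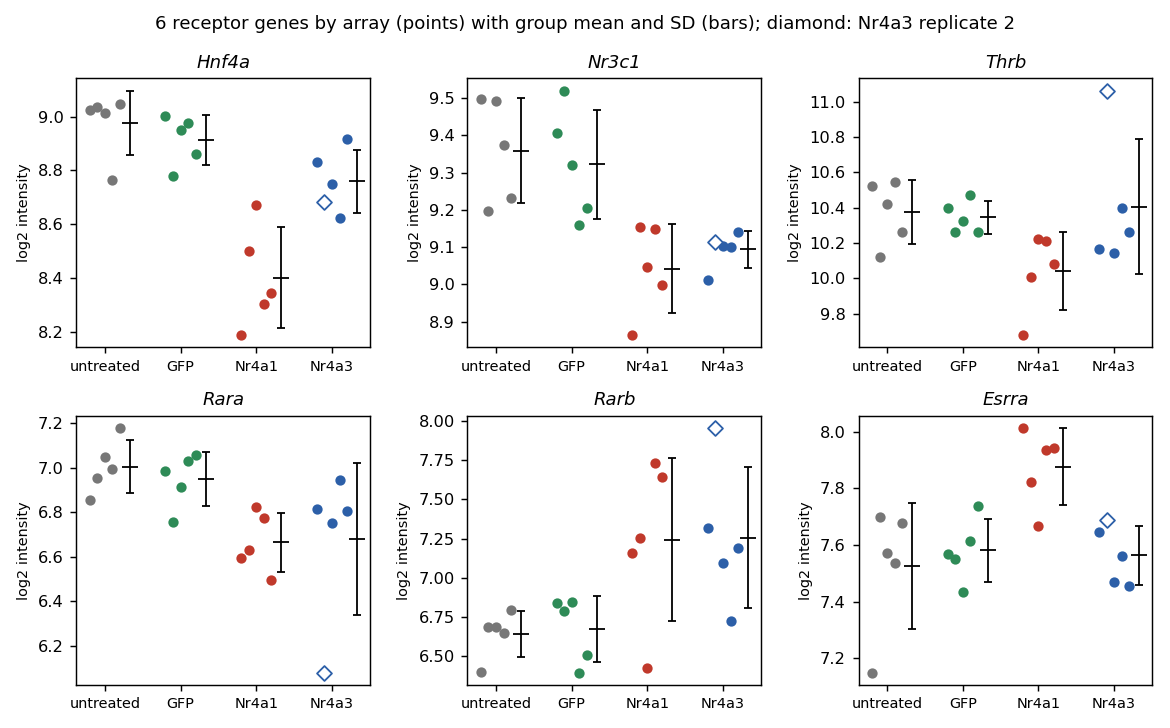
Log2 intensity (y axis) of 6 receptor genes in each of 20 arrays (points, by group on the x axis) with group mean and SD (bars); the open diamond is Nr4a3 replicate 2. Hnf4a, Nr3c1 and Thrb lie lower in all Nr4a1 arrays than in all GFP arrays, and Rarb lies higher in 4 of 5 arrays of each NR4A group.

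The clock receptors varied widely within groups. Nr1d1 was at 7.75, 7.22, 7.89, 6.94 and 7.50 in the GFP arrays, 6.79, 7.75, 7.57, 6.87 and 6.66 in the untreated arrays, 6.51, 7.27, 6.58, 6.73 and 7.11 in the Nr4a1 arrays and 7.51, 5.69, 7.17, 6.68 and 7.28 in the Nr4a3 arrays. All groups overlap, and the lowest value is Nr4a3 replicate 2. Its log2 difference from GFP was -0.62 ± 0.29 for Nr4a1 and -0.59 ± 0.29 for Nr4a3 (SE, n = 5 per group, limma adjusted p = 0.241 and 0.409), and -0.62 ± 0.23 and -0.30 ± 0.24 without Nr4a3 replicate 2 (adjusted p = 0.0650 and 0.616). Rora was at 9.06, 9.12, 9.01, 8.86 and 8.97 in the GFP arrays and 8.72, 8.58, 8.65, 7.60 and 8.73 in the Nr4a1 arrays. These did not overlap, but Nr4a1 replicate 4 stood about 1 log2 unit below the rest. The difference was -0.55 ± 0.26 (adjusted p = 0.239), and -0.34 without that array (adjusted p = 0.558). A dimmer Rora probe set differed by -0.03 ± 0.13. Nr1d2 differed by -0.32 ± 0.18 for Nr4a1 and -0.06 ± 0.18 for Nr4a3, where the sign turned without Nr4a3 replicate 2 (0.04 ± 0.18), and neither passed. The E-box letters CACGTG, which the clock activators CLOCK and BMAL1 bind, were in 4 of the 40 windows, those of Nr1d1, Nr0b2, Esr2 and Nr5a1, against 5.59% of all windows. Of 15 other clock genes none passed limma's test in the Nr4a1 or the Nr4a3 arrays (8.71% and 1.93% of all genes did). At an unadjusted p under 0.05 there was 1 with each virus (all genes 19.9% and 12.8%). Medians were -0.11 and -0.13, with 13 of 15 (all genes 50.4%) and 12 of 15 (7006 of all 14217 genes) below 0. Without Nr4a3 replicate 2 the Nr4a3 median was -0.10, with 10 of 15 below 0. Per2, a core repressor of the clock, was the single clock gene called in the Nr4a1 arrays without Nr4a3 replicate 2: it fell from 8.94 ± 0.20 to 8.39 ± 0.20 (SD, log2, n = 5; limma adjusted p = 0.00971, and 0.0718 with that array).

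The sensors of metabolites and foreign compounds did not pass in any comparison. Nr1h4, the bile acid receptor gene, differed by -0.26 ± 0.12 for Nr4a1 and -0.31 ± 0.12 for Nr4a3 (SE, n = 5 per group, limma adjusted p = 0.192 and 0.224). Its values were 7.70, 7.70, 7.70, 8.02 and 7.75 in the GFP arrays, 7.50, 7.46, 7.86, 7.45 and 7.27 in the Nr4a1 arrays and 7.51, 7.10, 7.38, 7.69 and 7.64 in the Nr4a3 arrays. All Nr4a3 arrays lay below all GFP arrays, and 1 Nr4a1 array did not. For the LXR genes the difference between Nr4a1 and GFP was -0.01 ± 0.27 for Nr1h2, with a 95% confidence interval of -0.57 to 0.56, and 0.03 ± 0.14 for Nr1h3, with -0.27 to 0.33. Nr1h2 was at 8.28, 6.16, 7.99, 8.12 and 8.22 in the Nr4a3 arrays and at 8.12, 8.16, 8.28, 7.98 and 8.00 in the GFP arrays. Replicate 2 alone was low, and without it the Nr4a3 difference of -0.36 ± 0.27 became 0.04 ± 0.10. The differences between Nr4a1 and GFP were -0.05 ± 0.09 for Ppara, 0.02 ± 0.12 for Ppard and -0.08 ± 0.11 for Pparg. The drug sensors Nr1i2 and Nr1i3, both near the floor, differed by -0.08 ± 0.09 and -0.14 ± 0.12.

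Some target genes of these sensors were called with Nr4a1. Of 17 PPAR targets 3 rose (all genes 6.16%) and none fell, with a median of 0.18. The mitochondrial carnitine carrier gene Slc25a20 rose from 9.63 ± 0.13 to 10.16 ± 0.11 (SD, log2, n = 5; log2 difference 0.53 ± 0.11, SE, limma adjusted p = 0.00365), Acadm, a fatty acid oxidation enzyme, from 9.24 ± 0.11 to 9.62 ± 0.14 (adjusted p = 0.0137), and lipoprotein lipase, Lpl, from 9.56 ± 0.26 to 10.05 ± 0.22 (adjusted p = 0.0432). Without Nr4a3 replicate 2, 5 rose (all genes 12.2%) and 1 fell (all genes 6.86%). The one that fell was Pdk4, a kinase that spares glucose from oxidation, which had the largest difference of the list, -0.90 ± 0.29 (limma adjusted p = 0.0318 without that array, 0.0601 with it, groups overlapping). Of 13 LXR targets, a list that holds Nr1h3 itself, 2 fell (all genes 2.55%) and none rose (median -0.06). With Nr4a3 replicate 2 left out, 1 rose (all genes 12.2%) and 3 fell (all genes 6.86%). Abca1, the cholesterol efflux transporter, was at 10.83, 10.77, 10.82, 10.65 and 10.77 in the GFP arrays and 9.72, 10.14, 10.09, 10.02 and 10.20 in the Nr4a1 arrays, and fell by 40.0% without overlap (log2 -0.74 ± 0.11, adjusted p = 0.000262). The fatty acid synthase gene Fasn fell from 9.97 ± 0.06 to 9.64 ± 0.13 (adjusted p = 0.00683) and was lower than in the Nr4a3 arrays too, by -0.41 ± 0.07 (log2, Nr4a1 minus Nr4a3, adjusted p = 0.00915). With Nr4a3 no PPAR target and no LXR target passed limma's test against GFP (all genes 1.93%). At an unadjusted p under 0.05 there were 1 of 17 and 2 of 13 (all genes 12.8%). Their medians were 0.03 and -0.13, the latter -0.03 without Nr4a3 replicate 2. None of 9 bile acid genes, which include Nr0b2, passed with either virus. None had an unadjusted p under 0.05 (all genes 19.9% with Nr4a1 and 12.8% with Nr4a3).

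**Figure D4:**
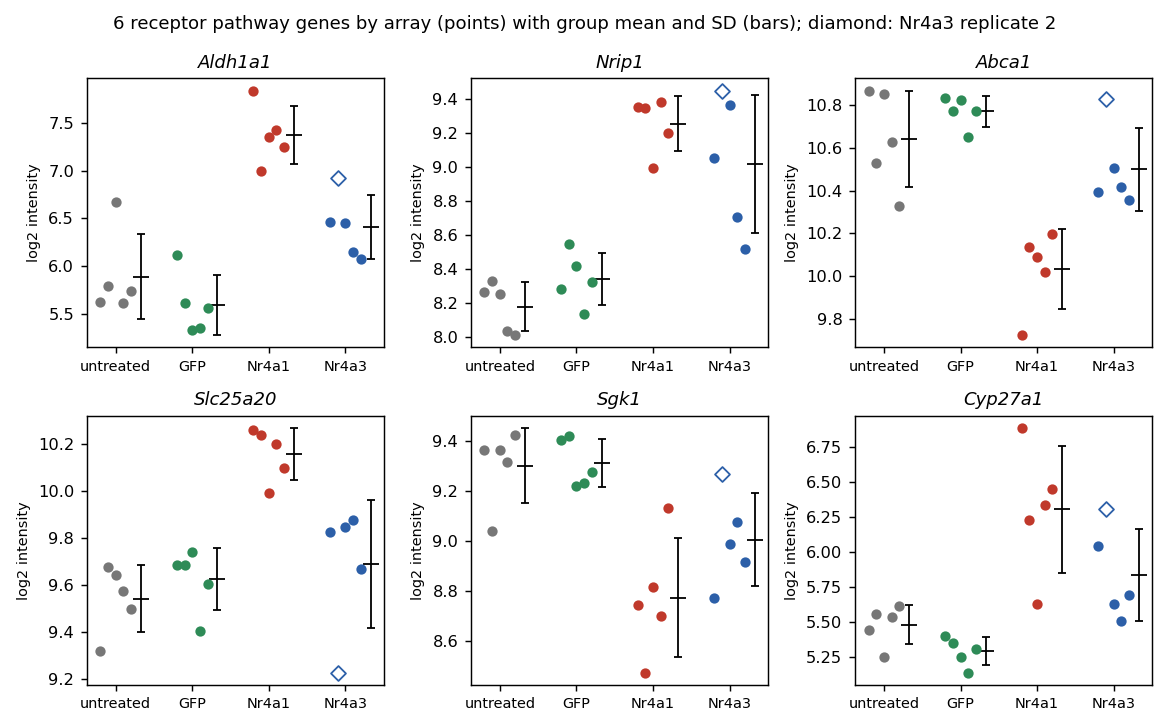
Log2 intensity (y axis) of 6 genes of receptor pathways in each of 20 arrays (points, by group on the x axis) with group mean and SD (bars); the open diamond is Nr4a3 replicate 2. Aldh1a1, Nrip1, Slc25a20 and Cyp27a1 lie higher, and Abca1 and Sgk1 lower, in all Nr4a1 arrays than in all GFP arrays.

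Among the orphan receptors other than Hnf4a, Esrra, which regulates genes of mitochondrial respiration, came closest to the threshold. It was at 7.57, 7.55, 7.43, 7.61 and 7.74 in the GFP arrays, 8.01, 7.82, 7.67, 7.94 and 7.94 in the Nr4a1 arrays and 7.65, 7.69, 7.47, 7.56 and 7.45 in the Nr4a3 arrays. Its log2 difference was 0.29 ± 0.10 for Nr4a1 (SE, n = 5 per group, limma adjusted p = 0.0677, and 0.0311 without Nr4a3 replicate 2) and -0.02 ± 0.10 for Nr4a3 (-0.05 ± 0.10 without replicate 2). Its relative Esrrg differed by -0.15 ± 0.17 for Nr4a1 and 0.03 ± 0.17 for Nr4a3, where the sign turned without replicate 2 (-0.09 ± 0.17). Nr5a2, known as a regulator of digestive enzyme genes in acinar cells, was at 5.64, 5.48, 5.36, 5.54 and 5.51 in the GFP arrays and 5.28, 5.21, 5.58, 5.77 and 5.71 in the Nr4a1 arrays, a difference of 0.00 ± 0.16 with a 95% confidence interval of -0.33 to 0.33, in the same arrays in which 19 of 23 acinar markers rose. Its signal lay below the yardstick, so a change could be hidden. The COUP-TF genes Nr2f1, Nr2f2 and Nr2f6 differed between Nr4a1 and GFP by -0.20 ± 0.14, 0.02 ± 0.20 and -0.06 ± 0.22, and Nr2c1 and Nr2c2 by -0.15 ± 0.17 and 0.02 ± 0.09. Nr5a1, Nr0b1 and Nr0b2 differed by -0.18 ± 0.11, 0.04 ± 0.08 and -0.07 ± 0.20, and none of these 8 passed.

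Coregulators, which receptors recruit to switch target genes on or off, went both ways in the Nr4a1 arrays: 3 of 23 rose (all genes 6.16%) and 2 fell (all genes 2.55%), with a median of -0.05. Leaving out Nr4a3 replicate 2, 3 rose (all genes 12.2%) and 4 fell (all genes 6.86%). Nrip1, a corepressor of many receptors, was at 8.28, 8.55, 8.42, 8.14 and 8.32 in the GFP arrays, 9.35, 9.35, 8.99, 9.39 and 9.20 in the Nr4a1 arrays and 9.05, 9.45, 9.37, 8.71 and 8.52 in the Nr4a3 arrays. It rose 1.88-fold with Nr4a1 (log2 0.91 ± 0.15, SE, n = 5 per group, limma adjusted p = 0.000422) and 1.60-fold with Nr4a3 (log2 0.68 ± 0.15, adjusted p = 0.0170), the only coregulator gene of the 23 called with Nr4a3. Ncoa4 rose by 0.44 ± 0.13 and Tbl1xr1, which exchanges corepressors for coactivators, by 0.36 ± 0.11, while the coactivator genes Ncoa1 and Ep300 fell by 0.39 and 0.48 on the log2 scale (adjusted p of these 4 from 0.0339 to 0.0397).

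Between both NR4A groups no receptor gene passed limma's test (0 of 36, against 0.633% of all genes), and none passed without Nr4a3 replicate 2 (all genes 0.935%). The groups overlapped for every receptor gene (they did not for 2.66% of all genes). At an unadjusted p under 0.05 there were 4 (all genes 11.5%): Nr1i3, Thrb and Hnf4a were lower and Esrra was higher in the Nr4a1 arrays. Hnf4a differed by -0.36 ± 0.09 (log2, Nr4a1 minus Nr4a3, SE, n = 5 per group, limma adjusted p = 0.0788) and Esrra by 0.31 ± 0.10 (adjusted p = 0.200). Without Nr4a1 replicate 3, its group's highest Hnf4a value, Hnf4a passed (adjusted p = 0.0183). The Thrb difference was -0.37 ± 0.15, or -0.20 ± 0.11 once Nr4a3 replicate 2 was left out. Nr1i3, a drug sensor near the floor, was at 4.70, 4.89, 4.54, 4.70 and 4.32 in the Nr4a1 arrays and 4.98, 5.39, 4.95, 4.98 and 4.80 in the Nr4a3 arrays, a difference of -0.39 ± 0.12 (adjusted p = 0.194). So the fall of Hnf4a with Nr4a1 was not shown to differ from its value with Nr4a3.

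The control virus alone called no receptor gene: in GFP against untreated islets 0 of 36 passed limma's test (all genes 0%), and 4 of 36 had an unadjusted p under 0.05 (all genes 2.90%), namely Nr1h3, Nr2c2, Nr0b1 and Rora. The median difference was -0.06 (all genes -0.02), and 24 of 36 were below 0 (8187 of all 14217 genes). Rora differed by 0.55 ± 0.26 (log2, GFP minus untreated, SE, n = 5 per group), with the low untreated replicates 4 and 5 given above. Nr1h3 was at 6.46, 6.17, 5.96, 6.45 and 6.93 in the untreated arrays and 5.93, 5.95, 6.25, 6.25 and 5.81 in the GFP arrays, a difference of -0.36 ± 0.14. The groups overlapped for every receptor gene (they did not for 0.605% of all genes), and every adjusted p was close to 1.

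Nr4a3 replicate 2 was the highest or the lowest of its group for 32 of 36 receptor genes, against 6 to 13 for the other 4 Nr4a3 arrays, and the highest or lowest of all 20 arrays for 23. Against the mean of the other 4 Nr4a3 arrays it differed by -1.99 for Nr1h2, -1.61 for Nr2f6 and -1.47 for Nr1d1 at the low end, and by 0.87 for Rarb, 0.83 for Vdr and 0.82 for Thrb at the high end (log2). For Hnf4a and Nr3c1 it lay inside the range of the others, at 8.68 and 9.11. The Nr4a3 means of Nr1h2, Nr2f6 and Nr2c1 with all arrays were 7.75, 8.45 and 7.42, and without this array they were 8.15, 8.77 and 7.65.

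**Figure D5:**
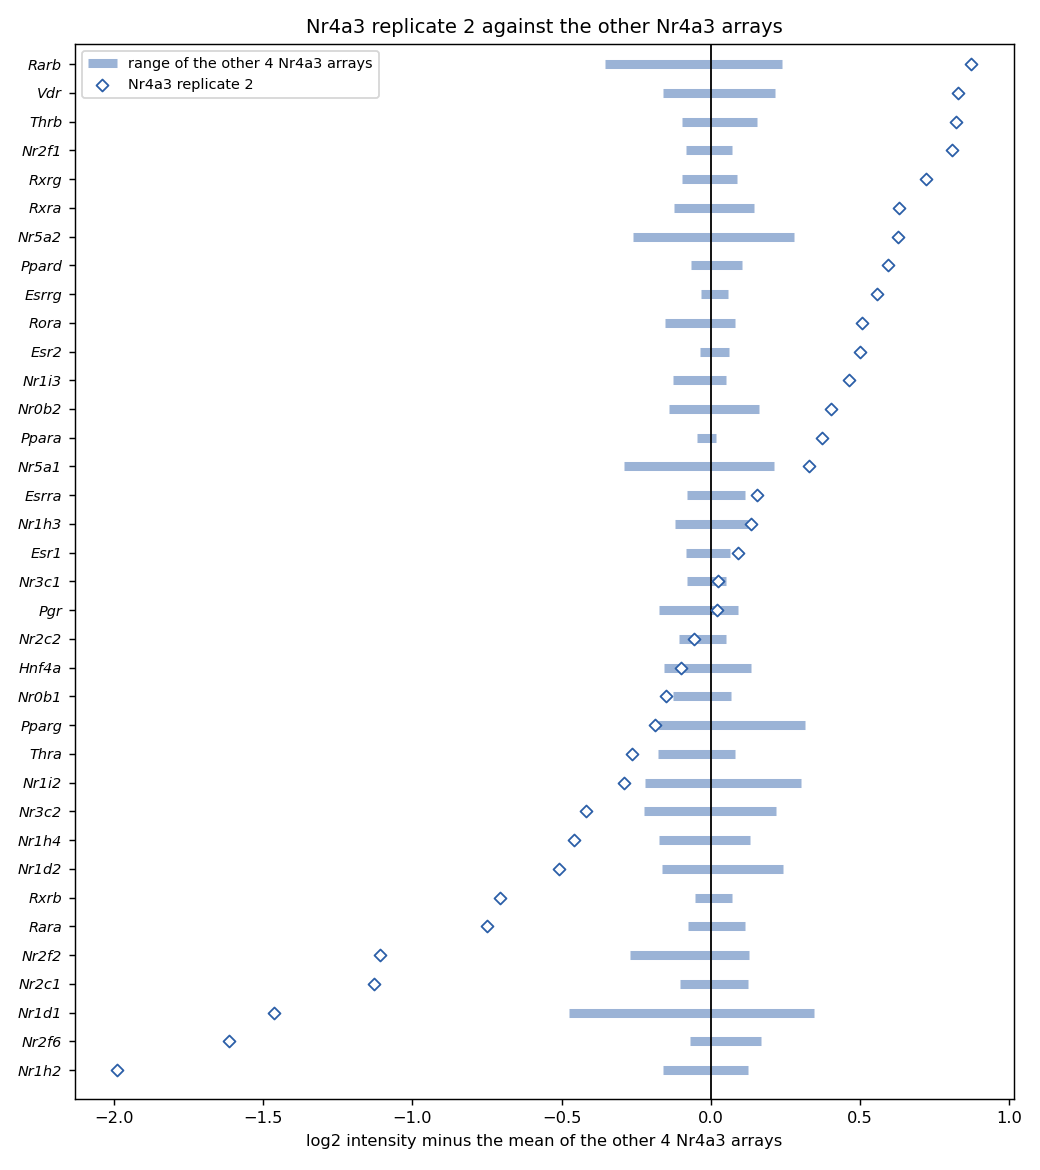
Log2 intensity of Nr4a3 replicate 2 (diamonds) minus the mean of the other 4 Nr4a3 arrays, whose range is the blue bar, for 36 receptor genes (y axis, ordered by this difference). The array runs from -1.99 for Nr1h2 to 0.87 for Rarb and lies outside the range of the others for 32 genes.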

How the data were processed

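Linear intensity values per probe set were deposited by the authors. The submitters' processing notes name RMA, a method that subtracts background, equalizes the distributions of the arrays and combines the probes of a set. The deposited intensity values were log2-transformed and not scaled further. Of 31099 probe sets, 20832 have 1 gene symbol in the platform annotation, 436 have several and 9831 none. The brightest probe set stood for each of 14217 genes, and 57 control probe sets only judged arrays. All 36 symbols match current RefSeq names by gene identifier. Limma 3.58.1 in R 4.3.3 fitted 1 mean per group to 20 arrays (16 residual and 3.64 prior degrees of freedom, two-sided moderated tests). Genes were called at a Benjamini-Hochberg adjusted p under 0.05 over all genes of a comparison. The fit was tested on simulated data.

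The receptor genes and lists were chosen with earlier results of these data known. Values per array are given for receptor genes called in a comparison and for the 3 largest uncalled differences of each. Those of Rara, Esrra, Rxrb, Nr1h4, Nr3c2 and Nr5a2 were added after their values were seen. Other lists name up to 4 called genes with the smallest adjusted p each, and Klf9, Per2 and Pdk4 were added likewise. Gene lists and cell type markers were written from general knowledge. Alternatives were a fit to 10 arrays, the replicate number as a block, repeated quantile normalization, median centring, a filter on dim genes, the mean of probe sets, array weights, a trended and robust variance, and leaving out each array. Promoter sequences come from RefSeq on GRCr8, with entries for 32 of the 36 genes. Precision is limited by the 5 arrays per group.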

Additional observations from a re-analysis of the deposited data

Results flagged for a closer look

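Over 36 receptor genes and 4 groups, that is 144 sets of 5 arrays, 21 sets held an array whose gap to its nearest neighbour took up over 0.71 of the group's range, where chance flags about 1 in 20. Of these, 12 were Nr4a3 replicate 2. Its log2 intensity was low for Nr1h2 (6.16, next 7.99), Nr2c1 (6.52, next 7.54), Nr2f6 (7.16, next 8.70), Rara (6.08, next 6.75) and Rxrb (6.80, next 7.46), and high for Nr2f1 (5.45, next 4.71), Rxrg (6.44, next 5.81), Ppara (6.25, next 5.89), Ppard (8.43, next 7.93), Thrb (11.1, next 10.4), Esr2 (4.24, next 3.80) and Esrrg (9.24, next 8.74). The other 9 lay in 7 arrays. GFP replicate 4 was high for Nr1h4 (8.02, next 7.75) and Nr0b2 (6.92, next 5.67). Nr4a1 replicate 4 stood out for Rxrb (7.55, next 7.42) and Rora (7.60, next 8.58). Single untreated arrays stood out for Rxrg (replicate 5, 6.20, next 5.80), Ppara (replicate 1, 6.06, next 5.79) and Hnf4a (replicate 4, 8.76, next 9.02). In the Nr4a3 group replicate 5 did so for Pparg (4.86, next 4.51) and replicate 3 did so for Pgr (4.95, next 5.14).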

How the results depend on the processing

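With Nr4a1 against GFP, 2 receptor genes were called (all genes 8.71%). Counts given below without a share of all genes cannot be set against the whole array. A fit to only the 10 arrays compared called 7 (all genes 20.1%), array weights 10 (all genes 25.2%), and median centring 1, Hnf4a. Averaging the probe sets of each gene called 1, Nr3c1, and leaving out single arrays gave 1 to 6. A repeated quantile normalization, leaving out genes below the median level (10 receptor genes left) and a trended, robust variance called the same 2 genes. The replicate number as a block called 1, Hnf4a, and none in the other comparisons. The numbers do not pair the arrays: 7 of 30 same-numbered pairs had deviations correlated over 0.1, and 4 of 30 correlated best with their own number. With Nr4a3 against GFP, where none was called (all genes 1.93%), the mean of probe sets called 1 (Nr3c1), array weights 2 (Nr3c1 and Rxrb) and single arrays left out 0 to 1. Between the NR4A groups, array weights called 2 (Hnf4a and Esrra) and single arrays left out 0 to 1. GFP against untreated stayed at 0 under all 29 settings. None of the 14 gene differences called somewhere changed sign. The number of arrays and signal near the floor limit what could be detected.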

Other observations

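Of 9 nuclear receptor genes that are neither listed above nor of the NR4A family, 3 were measured under the symbols used: Rarg, Rorb and Esrrb. None was called in any comparison (limma, 1 of 3 at an unadjusted p under 0.05 for Nr4a1 against GFP, all genes 19.9%). The retinoic acid receptor gene Rarg was at 6.66, 6.89, 6.85, 6.86 and 6.70 (log2 intensity) in the GFP arrays and 6.78, 6.54, 6.35, 5.87 and 6.25 in the Nr4a1 arrays, a difference of -0.44 ± 0.21 (SE, n = 5 per group, limma adjusted p = 0.267). Of the 5 Nr4a1 values, replicate 1 lay within the GFP range and the others below it. Rorb, the single gene of the 3 with an unadjusted p under 0.05, was at 5.64 against 5.46, near the floor of the array, a difference of 0.18 ± 0.09 (adjusted p = 0.249), and the orphan receptor gene Esrrb differed by 0.03 ± 0.11.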
